A study of Mus musculus with 8 samples.

Results

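Integrins are cell surface receptors built of 1 alpha and 1 beta subunit, which anchor a cell to laminins, collagens, fibronectin and other proteins of the matrix. VCAM-1 is an adhesion molecule of the immunoglobulin superfamily that serves as a counter-receptor for integrins carrying the alpha 4 subunit, chiefly on leucocytes. The 10 genes described here are Vcam1 and the integrin subunits Itga2, Itga3, Itga5, Itga6, Itgav, Itgb1, Itgb3, Itgb4 and Itgb5, out of 54532 genes in the deposited tables. Vcam1 was chosen by its measured rise in shMCT-1 against scramble, so its values in that comparison are given as a description with no test. The 9 integrins were chosen as a gene family with earlier results of these data known.

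The libraries came from 4T1, a mouse triple-negative breast cancer (TNBC) cell line of BALB/c origin. The cells had been stably transfected with a scramble shRNA or with an shRNA against MCT-1 (shMCT-1), a translation and cell cycle regulator encoded by Mcts1, and both lines were kept in puromycin. Each line was treated for 48 h with 100 ng/ml of an antibody against the mouse IL-6 receptor (anti-IL-6R), which blocks binding of IL-6, or with control IgG. The resulting 4 groups (scramble + IgG and scramble + anti-IL-6R from the control line, shMCT-1 + IgG and, from the same silenced line, shMCT-1 + anti-IL-6R) held 2 libraries each. No untransfected cells and no other shRNA were analysed here, and whether a line is a pool or 1 clone was not given in the sources used here, so that the action of the shRNA and a difference between the transfected lines cannot be told apart.

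Integrin function depends on which alpha subunit meets which beta subunit. Subunits alpha 3 and alpha 6 pair with beta 1 to bind laminins, alpha 2 with beta 1 to bind collagen and alpha 5 with beta 1 to bind fibronectin, while alpha 6 with beta 4 forms the core of hemidesmosomes in epithelia. The alpha v subunit pairs with beta 3, beta 5 and other beta subunits to bind RGD-bearing ligands such as vitronectin.

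The promoters of 2 subunits that fell and 2 that rose in shMCT-1 are shown because these genes changed together and in opposite directions in the same libraries. The sequences come from the RefSeq promoter table on build GRCm38.p6, which matched 6 of the 10 members (Itga2, Itga3, Itga5, Itgav, Itgb1 and Itgb5) and held no entry for Vcam1, Itga6, Itgb3 or Itgb4. Each run is the 250 bases upstream of the annotated start, 5′ to 3′ on the strand of the gene, at chr13:114932101-114932350 (minus strand) for Itga2, chr2:83724147-83724396 (plus) for Itgav, chr15:103366792-103367041 (minus) for Itga5 and chr16:33829415-33829664 (plus) for Itgb5. None of these bases lay in an annotated exon of its gene. Capitals mark each match to the GC box GGGCGG on either strand.
Itga2: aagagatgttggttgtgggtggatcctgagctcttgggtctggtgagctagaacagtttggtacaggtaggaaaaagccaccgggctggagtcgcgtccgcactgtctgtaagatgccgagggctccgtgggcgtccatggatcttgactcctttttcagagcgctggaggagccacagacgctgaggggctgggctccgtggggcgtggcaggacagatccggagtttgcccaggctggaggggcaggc
Itgav: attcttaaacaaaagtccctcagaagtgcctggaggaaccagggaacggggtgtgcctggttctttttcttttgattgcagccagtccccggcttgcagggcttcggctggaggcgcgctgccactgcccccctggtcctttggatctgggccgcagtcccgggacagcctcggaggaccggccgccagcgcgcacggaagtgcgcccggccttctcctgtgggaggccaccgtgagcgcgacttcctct
Itga5: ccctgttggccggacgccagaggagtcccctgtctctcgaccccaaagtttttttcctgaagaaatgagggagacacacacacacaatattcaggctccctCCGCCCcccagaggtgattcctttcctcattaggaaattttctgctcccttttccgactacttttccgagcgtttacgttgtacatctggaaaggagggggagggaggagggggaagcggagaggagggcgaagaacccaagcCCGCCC
Itgb5: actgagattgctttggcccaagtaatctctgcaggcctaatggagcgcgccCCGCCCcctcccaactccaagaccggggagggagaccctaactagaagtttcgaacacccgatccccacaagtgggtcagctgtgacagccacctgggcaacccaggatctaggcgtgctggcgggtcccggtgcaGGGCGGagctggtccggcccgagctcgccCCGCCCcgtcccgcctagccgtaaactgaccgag

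The Itga5 promoter held 2 GC boxes and that of Itgb5 held 3, whereas those of Itga2 and Itgav held none. The promoter of Itgb1 held 1 GC box and 1 match to the TEAD motif GGAATG. Itga3 had 2 entries, with 3 GC boxes in the first and 1 in the second. In the first, 34 bases lay in annotated exons. A GC box was present in 32.7% of the 32851 promoters of the same length in the table, and GGAATG in 12.6%. The other motifs searched on both strands were the TATA box TATAAA (12.4% of promoters), the AP-1 motif TGANTCA (6.75%), the STAT motif TTCNNNGAA (7.02%), the GATA motif AGATAA (9.99%) and the kappa-B consensus (3.9%). None of these 5 matched in the windows of Itga2, Itgav, Itga5, Itgb1 or Itgb5, and a match or its absence describes the letters of the window only.

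Levels are given in CPM, read counts scaled to the size of the library. The fits modelled rounded counts with TMM scaling and gave differences as log2 fold changes. The libraries held 19839293 to 33063575 counts, and the 4 shMCT-1 libraries (at most 23448590) were all shallower than the 4 scramble libraries (at least 24100093). Mcts1, the target of the shRNA, had a mean of 13.4 ± 1.49 CPM over the 4 scramble libraries and of 6.03 ± 0.774 CPM over the 4 shMCT-1 libraries (SD). Of 7 mammary epithelial markers, 5 were higher in shMCT-1 in both comparisons, with a sum of 2386 to 2539 CPM in scramble and 3167 to 3430 CPM in shMCT-1, and Cldn7 stayed under 1 CPM. Among the epithelial markers, Epcam went from a mean of 4.37 CPM in scramble to 51.3 CPM in shMCT-1. Cdh1, at 298.9 and 276.5 CPM, was called in neither comparison. The sum of 7 endothelial markers was 1.22 to 1.78 CPM in scramble and 2.02 to 3.73 CPM in shMCT-1, with 5 of them under 1 CPM in every library. Cdh5 was above 1 CPM in shMCT-1 libraries only, at means of 0.0311 CPM in scramble and 0.921 CPM in shMCT-1. Tie1 stood at 1.3 and 1.91 CPM. The sum of 6 leucocyte markers was 3.14 to 3.94 CPM against 6.1 to 7.81 CPM. Of these 6, only Cd68 passed the filter, at a mean of 3.06 CPM in scramble and 6.41 CPM in shMCT-1. The other 5 were under 1 CPM in every library, with Cd3e and Adgre1 at 0 throughout. The sum of 7 fibroblast and pericyte markers was 14.7 to 16.8 CPM against 10.9 to 15.0 CPM. Of these 7, 6 were under 1 CPM in every library, with Lum and Dpt at 0. The part of these markers in the results was not tested. In bulk RNA, fewer cells of a kind and less RNA per cell cannot be told apart.

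All 10 members passed the filter on low values, which required 2 or more libraries above 1 CPM. In the comparison within IgG, 7 of the 9 integrins were differentially expressed genes (DEGs, adjusted p-value under 0.05 in edgeR's quasi-likelihood test), with Itga3, Itga5, Itgb3 and Itgb5 higher and Itga2, Itga6 and Itgav lower in shMCT-1. Within anti-IL-6R treatment the same 7 genes changed in the same direction and Itgb1 was also higher, which made 8 of 9. Over all 12704 genes tested, 54.4% were called within IgG (28.3% higher, 26.1% lower) and 54.3% within anti-IL-6R (26.9% higher, 27.3% lower). The shares called of the 9 integrin members were 77.8% and 88.9%. Of all 16 integrin subunits that passed the filter, 8 (50.0%) were called within IgG and 12 (75.0%) within anti-IL-6R. Of the 7 that are not members, 1 (14.3%) and 4 (57.1%) were called. These 7 include 3 that passed the filter through scramble libraries only (Itga2b, Itga10 and Itgb2). The counts within anti-IL-6R include calls of Itga2b and Itgb2, which are not read as tests. In CPM, all 4 shMCT-1 libraries stood above all 4 scramble libraries for 5 integrins, below them for 3, and overlapped with them for Itgb4. The background shares were 29.9% above and 34.2% below, so that separation of the libraries was common among all genes.

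**Figure D1:**
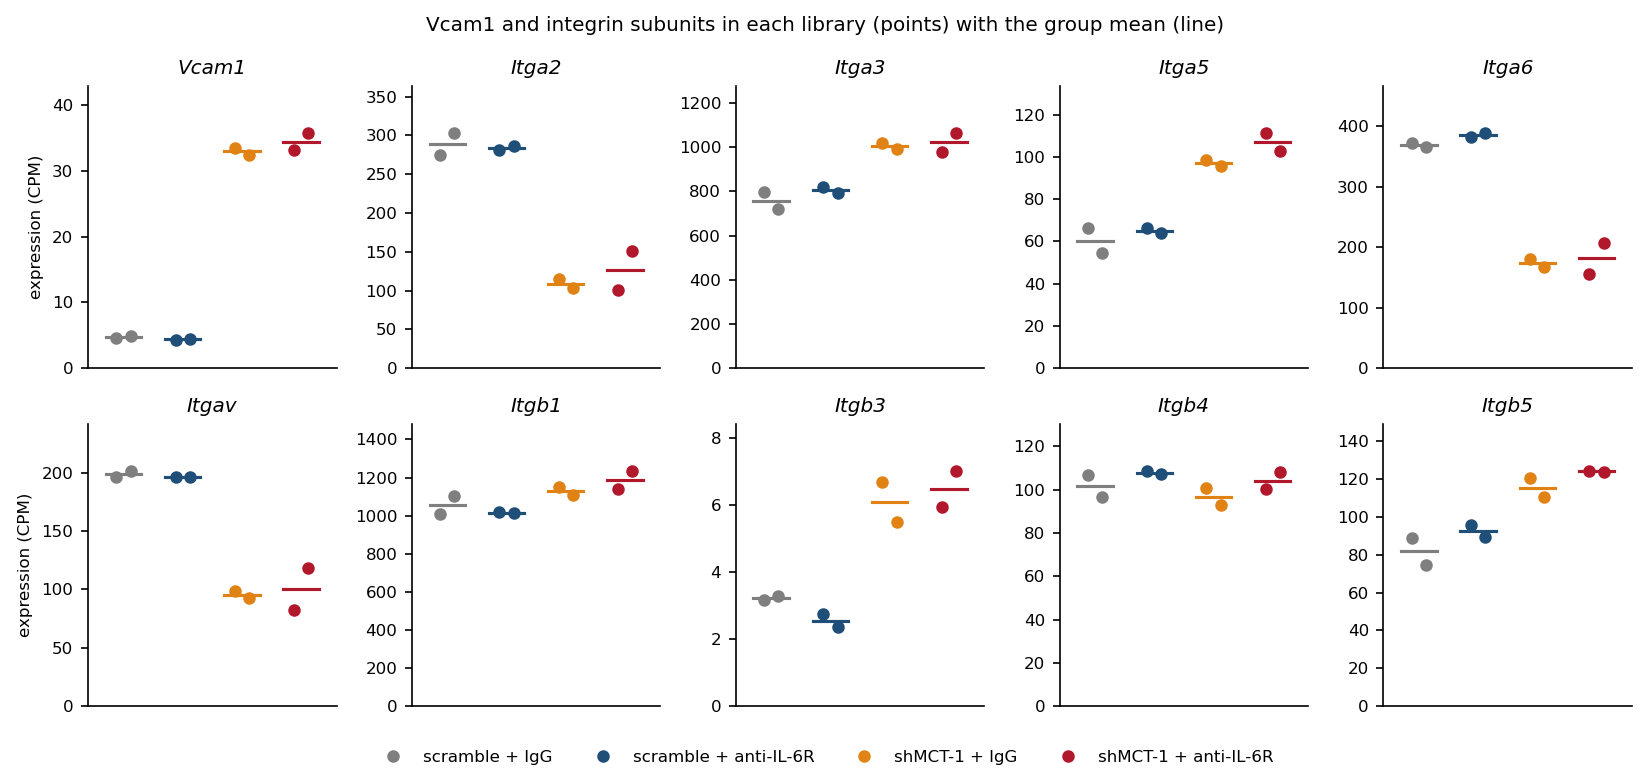
Expression of Vcam1 and 9 integrin subunits in CPM (vertical axes, linear and starting at 0), with 1 point per library and a line at the mean of the 2 libraries of each group. The shMCT-1 groups lie above both scramble groups for Vcam1, Itga3, Itga5, Itgb1, Itgb3 and Itgb5, below them for Itga2, Itga6 and Itgav, and among them for Itgb4.

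Vcam1 (ENSMUSG00000027962, chr3:116109949-116129688, minus strand) stood at 4.65 and 4.85 CPM in scramble + IgG and at 4.32 and 4.42 CPM in scramble + anti-IL-6R. It stood at 33.5 and 32.5 CPM in shMCT-1 + IgG and at 33.2 and 35.8 CPM in shMCT-1 + anti-IL-6R. The 4 shMCT-1 libraries were close to each other and far above the 4 scramble libraries, and the ratio of the means (33.8 ± 1.42 to 4.56 ± 0.24 CPM, SD, n = 4 each) was 7.4. The log2 fold change was 2.84 within IgG and 3.04 within anti-IL-6R. Within IgG Vcam1 ranked at 184 among the 12704 genes tested, and 145 genes (1.14%), Vcam1 included, had log2 fold changes at or above those of Vcam1 in both comparisons. The counts behind these values ran from 117 to 786 per library. An antisense transcript, Gm43109, shares 61 exonic bases with Vcam1 and was listed at 0 in every library.

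Itga4, which encodes the alpha 4 subunit of the VCAM-1 receptors, did not pass the filter and is named for this known pairing, after its values were seen. It had 2 counts in library 1 of scramble + IgG and 0 in the other 7 libraries, where a count of 0 allows up to 0.0907 to 0.151 CPM (3 counts, counting error only). Itgb7, whose product can pair with alpha 4, stood at 3.07 ± 0.459 CPM in scramble and 2.84 ± 0.637 CPM in shMCT-1 (SD, n = 4 each) and was called in neither comparison (log2 fold changes of -0.083 and -0.033).

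The alpha subunits divided into those that fell and those that rose. Itga2 (ENSMUSG00000015533, chr13:114833081-114932100), the collagen-binding subunit, was at 274 and 303 CPM in scramble + IgG, 281 and 286 CPM in scramble + anti-IL-6R, 114 and 103 CPM in shMCT-1 + IgG, and 101 and 151 CPM in shMCT-1 + anti-IL-6R. All shMCT-1 libraries were below all scramble libraries, and library 2 of shMCT-1 + anti-IL-6R was the highest of the shMCT-1 libraries. The log2 fold change was -1.36 ± 0.16 (SE, edgeR adjusted p = 0.000118) within IgG and -1.12 ± 0.16 (SE, edgeR adjusted p = 0.000335) within anti-IL-6R.

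Itga6 (ENSMUSG00000027111, chr2:71745616-71858416), the laminin-binding subunit shared by alpha 6 beta 1 and the hemidesmosomal alpha 6 beta 4, was at 372 and 366 CPM in scramble + IgG, 382 and 388 CPM in scramble + anti-IL-6R, 181 and 167 CPM in shMCT-1 + IgG, and 155 and 207 CPM in shMCT-1 + anti-IL-6R. The groups did not overlap and the level in shMCT-1 was 0.471 of that in scramble. Itga6 had a log2 fold change of -1.04 ± 0.12 (SE, edgeR adjusted p = 0.00012) within IgG and -1.03 ± 0.12 (SE, edgeR adjusted p = 0.00012) within anti-IL-6R.

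Itgav (ENSMUSG00000027087, chr2:83724397-83806916), the common partner of the RGD-binding beta subunits, was at 196 and 201 CPM in scramble + IgG, 196 and 196 CPM in scramble + anti-IL-6R, 98.4 and 92.5 CPM in shMCT-1 + IgG, and 82.1 and 119 CPM in shMCT-1 + anti-IL-6R. The scramble libraries varied little and each shMCT-1 library lay well below them. For Itgav the log2 fold change was -1.02 ± 0.14 (SE, edgeR adjusted p = 0.0003) within IgG and -0.91 ± 0.14 (SE, edgeR adjusted p = 0.000539) within anti-IL-6R. A processed transcript on the other strand, Gm13684, shares 634 exonic bases with Itgav and reached at most 0.786 CPM.

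In shMCT-1 + anti-IL-6R, library 2 exceeded library 1 by 0.58 for Itga2, 0.42 for Itga6 and 0.53 for Itgav (log2 ratios of CPM). Over all genes tested, the median log2 difference of the same 2 libraries was 0.185 in the 3174 genes with the longest exonic length and -0.121 in the 3174 shortest. The part of gene length in the fall of these 3 subunits was not tested beyond a correction for GC content and length, chosen after seeing the data, under which all 3 kept their calls, with log2 fold changes of -1.17, -0.89 and -0.70 within IgG and -0.91, -0.85 and -0.60 within anti-IL-6R. Genes on the same chromosome also had low medians. The median log2 fold change within IgG was -0.42 over 527 genes on chromosome 13, which carries Itga2, and -0.36 over 1001 genes on chromosome 2, which carries Itga6 and Itgav. Relative to these medians the values were -0.945 for Itga2, -0.682 for Itga6 and -0.656 for Itgav (log2 differences), and the part of the chromosome was not tested. For the members that were higher, the medians within IgG were 0.094 on chromosome 3 (Vcam1), 0.15 on chromosome 11 (Itga3, Itgb3), 0.18 on chromosome 15 (Itga5) and 0.062 on chromosome 16 (Itgb5).

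Itga3 and Itga5 were higher in shMCT-1. Itga3 (ENSMUSG00000001507, chr11:95044474-95076801), a laminin receptor subunit and the most abundant alpha subunit here, was at 797 and 720 CPM in scramble + IgG, 818 and 790 CPM in scramble + anti-IL-6R, 1018 and 991 CPM in shMCT-1 + IgG, and 978 and 1064 CPM in shMCT-1 + anti-IL-6R. The groups did not overlap, and the ratio of the means was 1.3. The log2 fold change was 0.45 ± 0.085 (SE, edgeR adjusted p = 0.00175) within IgG and 0.40 ± 0.085 (SE, edgeR adjusted p = 0.00325) within anti-IL-6R. Without library 2 of scramble + anti-IL-6R the second value was 0.37 and was no longer called (edgeR adjusted p = 0.0521).

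Itga5 (ENSMUSG00000000555, chr15:103344286-103366763), the fibronectin receptor subunit, was at 66.1 and 54.6 CPM in scramble + IgG, 66.3 and 63.8 CPM in scramble + anti-IL-6R, 98.4 and 95.7 CPM in shMCT-1 + IgG, and 111 and 103 CPM in shMCT-1 + anti-IL-6R. Every shMCT-1 library exceeded every scramble library. On the log2 scale Itga5 rose by 0.73 ± 0.1 (SE, edgeR adjusted p = 0.000293) within IgG and 0.77 ± 0.0997 (SE, edgeR adjusted p = 0.000205) within anti-IL-6R.

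Among the beta subunits, Itgb1 (ENSMUSG00000025809, chr8:128685654-128733200), the partner of alpha 2, alpha 3, alpha 5 and alpha 6, was the most abundant. It was at 1009 and 1103 CPM in scramble + IgG, 1020 and 1013 CPM in scramble + anti-IL-6R, 1151 and 1107 CPM in shMCT-1 + IgG, and 1142 and 1234 CPM in shMCT-1 + anti-IL-6R. The scramble libraries ended just below the shMCT-1 libraries, at 1103 against 1107 CPM. Within IgG the log2 fold change of 0.14 (95% confidence interval -0.06 to 0.34) did not pass the threshold (edgeR adjusted p = 0.211). Within anti-IL-6R it was 0.28 ± 0.089 (SE, edgeR adjusted p = 0.0224), and this call was lost without library 1 of scramble + anti-IL-6R (0.29, edgeR adjusted p = 0.114), without its library 2 (0.27, edgeR adjusted p = 0.146) and without library 2 of shMCT-1 + anti-IL-6R (0.24, edgeR adjusted p = 0.0903).

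Itgb3 (ENSMUSG00000020689, chr11:104608000-104670476), the beta subunit of the vitronectin receptor alpha v beta 3, was the lowest of the integrin members. It was at 3.16 and 3.28 CPM in scramble + IgG, 2.75 and 2.36 CPM in scramble + anti-IL-6R, 6.68 and 5.5 CPM in shMCT-1 + IgG, and 5.95 and 7.01 CPM in shMCT-1 + anti-IL-6R, from 78 to 154 counts per library. The groups did not overlap, and the ratio of the means was 2.18. The log2 fold change was 0.96 ± 0.2 (SE, edgeR adjusted p = 0.00253) within IgG and 1.40 ± 0.2 (SE, edgeR adjusted p = 0.000328) within anti-IL-6R.

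Itgb5 (ENSMUSG00000022817, chr16:33829665-33949338), another partner of alpha v, was at 88.9 and 74.7 CPM in scramble + IgG, 95.6 and 89.1 CPM in scramble + anti-IL-6R, 120 and 111 CPM in shMCT-1 + IgG, and 124 CPM in both libraries of shMCT-1 + anti-IL-6R. All shMCT-1 libraries were higher than all scramble libraries. Itgb5 rose by a log2 fold change of 0.54 ± 0.097 (SE, edgeR adjusted p = 0.0013) within IgG and 0.48 ± 0.097 (SE, edgeR adjusted p = 0.00243) within anti-IL-6R.

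Itgb4 (ENSMUSG00000020758, chr11:115974709-116008412), the hemidesmosomal partner of alpha 6, showed no detectable change. It was at 107 and 96.5 CPM in scramble + IgG, 109 and 107 CPM in scramble + anti-IL-6R, 101 and 92.9 CPM in shMCT-1 + IgG, and 100.5 and 108 CPM in shMCT-1 + anti-IL-6R, and the groups overlapped. The log2 fold changes were -0.029 (95% confidence interval -0.22 to 0.16, edgeR adjusted p = 0.79) within IgG and 0.0069 (95% confidence interval -0.19 to 0.20, edgeR adjusted p = 0.951) within anti-IL-6R. A long noncoding RNA on the other strand, B230344G16Rik, shares 537 exonic bases with Itgb4 and reached at most 0.799 CPM.

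**Figure D2:**
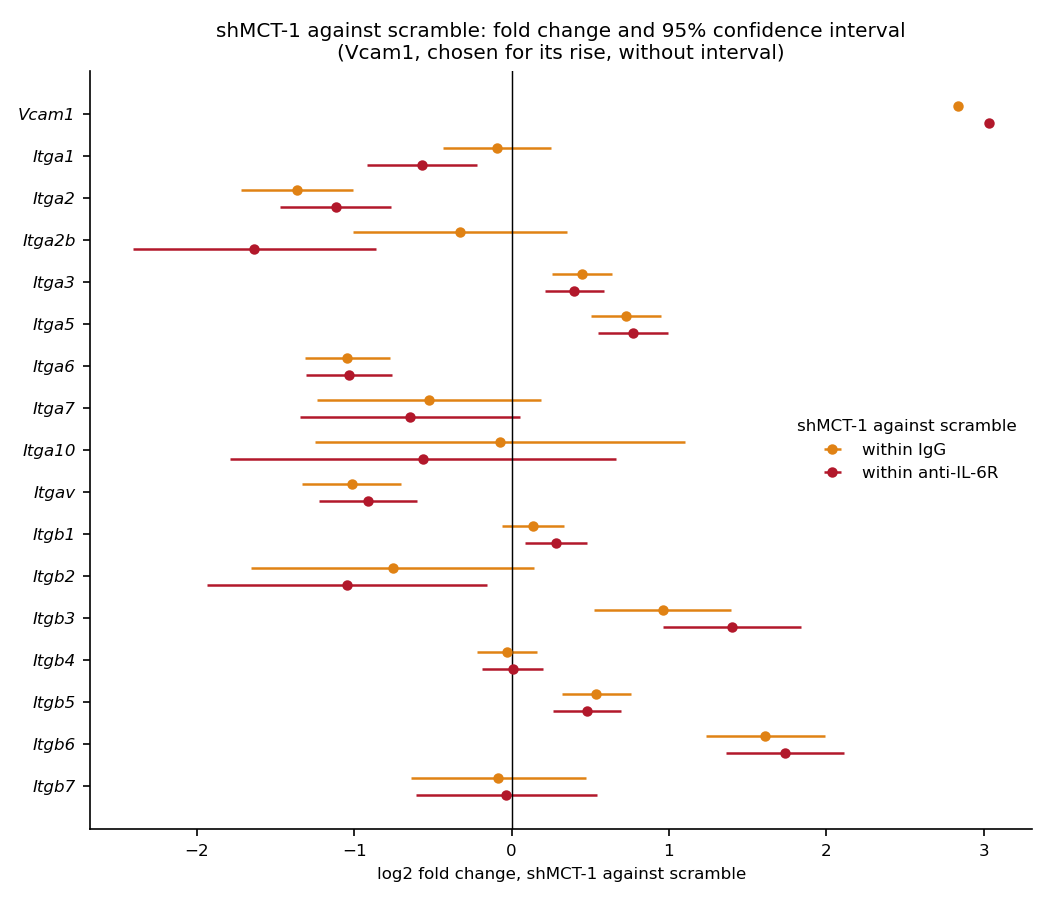
Difference between shMCT-1 and scramble as a log2 fold change (horizontal axis) for Vcam1 and the 16 integrin subunits that passed the filter, within IgG (orange) and within anti-IL-6R (red), with 95% confidence intervals from the fit over all genes. Itga2, Itga6 and Itgav lie left of 0 and Itga3, Itga5, Itgb3, Itgb5 and Itgb6 right of 0 in both comparisons, and Vcam1, chosen for its rise, is drawn without interval at 2.84 and 3.04. Itga2b, Itga10 and Itgb2 are drawn although they passed the filter through scramble libraries only, and their intervals are not read as a test.

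Of the 27 integrin subunit genes listed, 16 passed the filter, and 7 of these are not among the 10 genes above. Itgb6, a further partner of alpha v that epithelial cells use, rose from 2.72 ± 0.189 to 8.41 ± 0.271 CPM (SD, n = 4 each), with log2 fold changes of 1.61 ± 0.17 (SE, edgeR adjusted p = 7.09e-05) within IgG and 1.74 ± 0.17 (SE, edgeR adjusted p = 3.93e-05) within anti-IL-6R. Itga1, a collagen receptor subunit, fell within anti-IL-6R (log2 fold change of -0.57, edgeR adjusted p = 0.0118) and had a log2 fold change of -0.094 within IgG (edgeR adjusted p = 0.625). Itga2b, the platelet subunit, was at 1.16 to 1.34 CPM in scramble and 0.403 to 0.981 CPM in shMCT-1, and Itgb2, the leucocyte subunit, at 1.02 to 1.86 CPM and 0.592 to 0.806 CPM. Along with Itga10, these subunits were above 1 CPM in scramble libraries only, as 519 of the 12704 genes tested were. They passed the filter through the group where they were higher, so none of their p-values is given. Itga7 and Itgb7 were called in neither comparison.

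Levels of different genes were compared per kilobase of annotated exons (CPM per kb). In scramble the order was Itgb1 at 254 ± 10.9, Itga3 at 137 ± 7.44, Itga6 at 41.8 ± 1.14, Itga2 at 40.1 ± 1.72, Itgb5 at 24.5 ± 2.48, Itgav at 18.4 ± 0.241, Itgb4 at 14.9 ± 0.795, Itga5 at 12.7 ± 1.11, Vcam1 at 0.514 ± 0.0271 and Itgb3 at 0.489 ± 0.0709 CPM per kb (SD, n = 4). Itga6 and Itga2 differed by less than the sum of their SDs, as did Vcam1 and Itgb3. In shMCT-1 Itgb1 (284 ± 13.1) and Itga3 (177 ± 6.64) still led, followed by Itgb5 at 33.7 ± 1.78, Itga5 at 20.7 ± 1.38, Itga6 at 19.7 ± 2.5, Itga2 at 16.5 ± 3.24, Itgb4 at 14.3 ± 0.877, Itgav at 9.11 ± 1.43, Vcam1 at 3.8 ± 0.16 and Itgb3 at 1.07 ± 0.116 CPM per kb (SD, n = 4). Itga5 and Itga6, Itga6 and Itga2, and Itga2 and Itgb4, neighbours in this order, each differed by less than the sum of their SDs. The order depended on the length used. With the longest annotated transcript as the length, Itga6 (87.5 against 40.3 CPM per kb for Itga2) and Vcam1 (1.12 against 0.499 for Itgb3) separated from their neighbours in scramble, and Itgav at 28.0 stood above Itgb5 at 26.5. In shMCT-1 Itga6 at 41.2 CPM per kb then stood above Itgb5 at 36.5 and Itga5 at 23.1.

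Itga3 held a larger share of the alpha subunit RNA in every shMCT-1 library than in any scramble library. As shares of the CPM per kb of the 18 alpha genes listed, Itga3 made up 52.5% to 55.5% in the 4 scramble libraries and 70.8% to 73.6% in the 4 shMCT-1 libraries. Itga2 made up 15.2% to 17.7% in scramble and 6.05% to 8.04% in shMCT-1. The share of Itga6 was 16.3% to 16.9% in scramble and 7.37% to 8.73% in shMCT-1, and that of Itgav 7.07% to 7.81% and 3.27% to 4.19%. Itga5 was the other alpha subunit with a larger share in shMCT-1, at 4.61% to 5.31% in scramble and 7.9% to 9.67% in shMCT-1. The summed level of the alpha genes was 251.2 ± 7.77 CPM per kb in scramble and 244.2 ± 13.5 CPM per kb in shMCT-1 (SD, n = 4 each). Among the 9 beta genes listed, Itgb1 made up 84.8% to 87.8% in scramble and 84.2% to 85.0% in shMCT-1, and Itgb5 6.83% to 9.13% and 9.75% to 10.5%. The share of Itgb6 was 0.123% to 0.137% in scramble and 0.347% to 0.361% in shMCT-1, and that of Itgb3 0.137% to 0.185% and 0.292% to 0.339%. With the longest transcript as the length, an alternative chosen after seeing the data, the share of Itga6 was 25.8% to 26.7% in scramble and 12.4% to 14.6% in shMCT-1, and that of Itga3 46.5% to 49.3% and 66.4% to 69.6%.

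**Figure D3:**
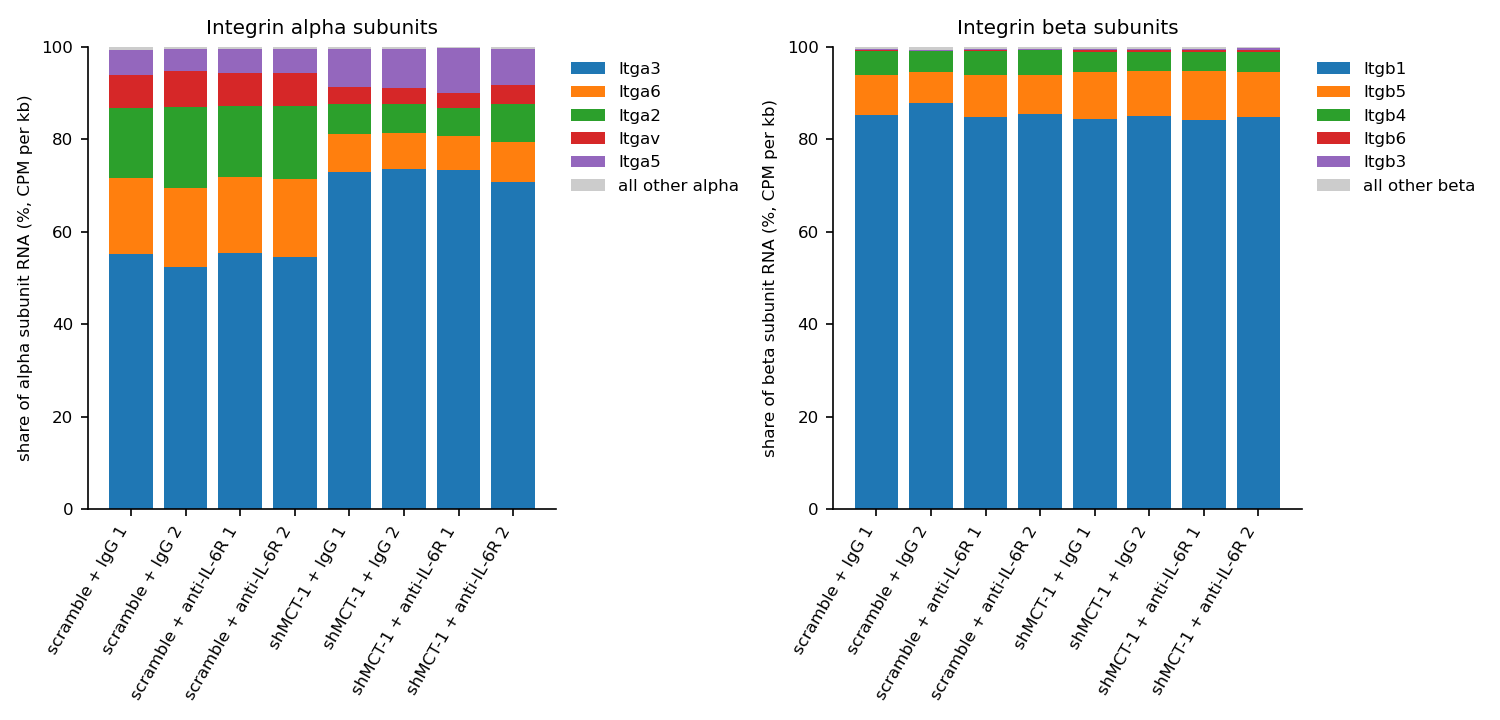
Shares of integrin alpha (left) and beta (right) subunit RNA in each library, in percent of the summed CPM per kb of exons (vertical axis, 0 to 100). Itga3 fills 52.5% to 55.5% of the alpha bars in scramble and 70.8% to 73.6% in shMCT-1, while Itgb1 fills 84.2% to 87.8% of every beta bar.

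The ratio of Itga6 to Itgb4 (CPM per kb) lay between 2.7 and 2.94 in scramble and between 1.2 and 1.49 in shMCT-1. That of Itgav to Itgb5 lay between 0.678 and 0.891 in scramble and between 0.219 and 0.317 in shMCT-1, and that of Itgav to Itgb6 between 44.6 and 51.1 and between 6.46 and 8.93. The ratio of Itga3 to Itga6, which share laminin as a ligand, lay between 3.11 and 3.39 in scramble and between 8.11 and 9.96 in shMCT-1. By longest transcript the ratio of Itga6 to Itgb4 was 5.0 to 5.46 in scramble and 2.23 to 2.77 in shMCT-1, and that of Itga3 to Itga6 was 1.75 to 1.9 and 4.55 to 5.59. These ratios are of RNA and were not tested, since each follows from the member values above.

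Anti-IL-6R changed none of the 10 members past the threshold. In edgeR's quasi-likelihood test 0 of 12704 genes (0%) were called in scramble, in shMCT-1 or in the interaction of shMCT-1 and anti-IL-6R, with 166, 505 and 315 genes at an unadjusted p under 0.05, and no member among these. DESeq2 called 0, 9 and 5 genes, and edgeR's exact test called 10 in scramble and 9 in shMCT-1. For Vcam1, whose choice did not use this contrast, the log2 fold change with anti-IL-6R was -0.13 (95% confidence interval -0.39 to 0.14) in scramble and 0.07 (95% confidence interval -0.14 to 0.28) in shMCT-1, and the difference between these responses was 0.20 (95% confidence interval -0.14 to 0.53). The largest response in size in scramble was -0.34 for Itgb3 (95% confidence interval -0.80 to 0.11), and in shMCT-1 0.21 for Itga2 (95% confidence interval -0.14 to 0.56), which turned to -0.092 without library 2 of shMCT-1 + anti-IL-6R. The interval for Itgb1 ran from -0.26 to 0.13 in scramble and from -0.12 to 0.28 in shMCT-1, and that for Itga6 from -0.21 to 0.32 and from -0.20 to 0.34. With 2 libraries per group, responses within these intervals are not excluded. The intervals are for single genes and do not set a limit of detection.

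**Figure D4:**
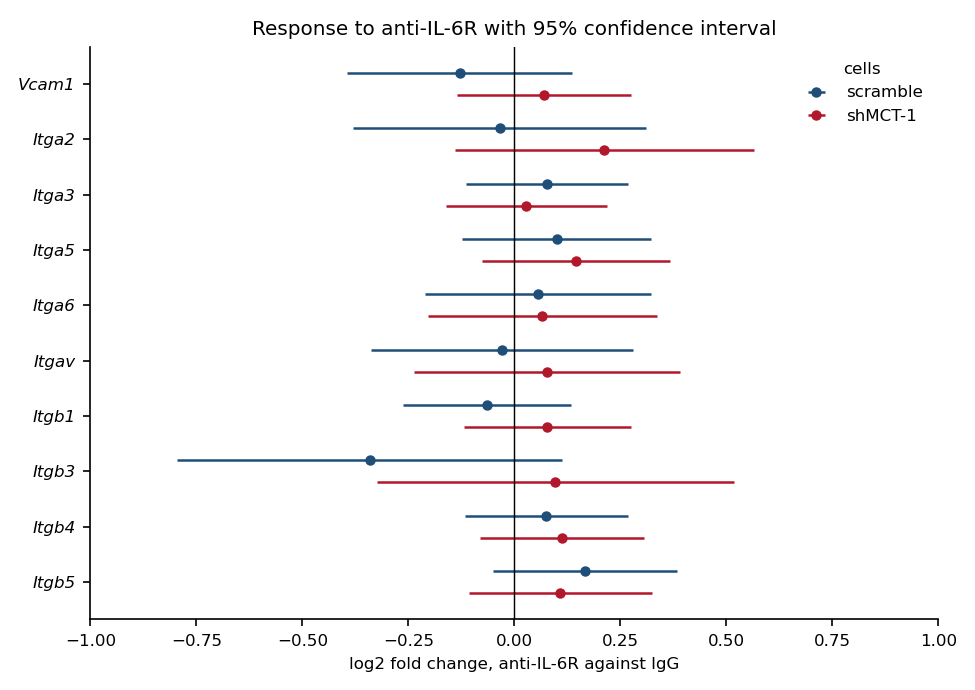
Log2 fold change of anti-IL-6R against IgG (horizontal axis) for the 10 members in scramble (blue) and in shMCT-1 (red), with 95% confidence intervals. Every interval includes 0, and the point farthest from 0 is Itgb3 in scramble at -0.34.

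Genes around the integrins were described by 4 lists, whose counts stand beside the 54.4% of all genes called within IgG (28.3% higher, 26.1% lower) and the 54.3% within anti-IL-6R (26.9% higher, 27.3% lower). Of 23 other immunoglobulin-type adhesion molecules and selectins, 12 passed the filter, and 7 (58.3%) rose and 0 fell in each comparison in edgeR's quasi-likelihood test, a share called near that over the whole table, at a median log2 fold change of 0.42 within IgG and 0.65 within anti-IL-6R beside 0.011 and 0.008 over all genes. Alcam, an activated leucocyte cell adhesion molecule, rose from 16.1 ± 1.42 to 46.9 ± 8.19 CPM (SD, n = 4 each), with log2 fold changes of 1.49 and 1.70 (edgeR adjusted p = 0.000111 and 5.23e-05). Nectin2, an adherens junction protein, rose from 15.1 ± 1.29 to 31.0 ± 1.76 CPM, by 1.12 and 1.05 on the log2 scale (edgeR adjusted p = 5.98e-05 and 7.61e-05). Icam1, which like Vcam1 is an integrin counter-receptor, stood at 1.09 ± 0.172 CPM in scramble and 1.37 ± 0.282 CPM in shMCT-1 and was called in neither comparison (edgeR adjusted p = 0.523 and 0.26). It was named after its values were seen.

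Of 29 genes for matrix proteins, integrin ligands and other secreted factors, collagens aside, 20 passed the filter. Within IgG 12 were higher and 6 lower (90.0% called, beside 54.4% of all genes). Within anti-IL-6R 12 were higher and 5 lower (85.0%, beside 54.3%). The median log2 fold changes of the list were 0.37 and 0.35. Of the 20, 1 was above 1 CPM in scramble libraries only. Lama5, the alpha chain of laminins bound by alpha 3 and alpha 6 integrins, fell from 881 ± 87.1 to 428 ± 38.0 CPM (log2 fold changes of -0.88 and -1.10, edgeR adjusted p = 0.000203 and 5.75e-05). Spp1, which encodes the RGD-bearing osteopontin, fell from 199 ± 16.5 to 106 ± 14.0 CPM (log2 fold changes of -0.64 and -1.08, edgeR adjusted p = 0.000373 and 2.13e-05). Ctgf, a matricellular ligand of several integrins, rose from 29.4 ± 2.3 to 260 ± 29.5 CPM (log2 fold changes of 2.98 and 3.41, edgeR adjusted p = 1.19e-07 and 7.54e-08). Tgfb2, a growth factor of the TGF-beta family, rose from 1.55 ± 0.0603 to 5.11 ± 1.53 CPM (log2 fold changes of 1.75 and 1.79, edgeR adjusted p = 0.00179 and 0.00144). Each fit that left out 1 library called fewer genes of this list in the comparison concerned. Most of these fits also called fewer of all genes.

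Of 36 activators and adaptors that link integrins to actin and signalling, 34 passed the filter, with 11 higher and 14 lower within IgG (73.5% called, beside 54.4% of all genes) and 12 higher and 14 lower within anti-IL-6R (76.5%, beside 54.3%), at medians of -0.15 and -0.068. Of the 34, 3 were above 1 CPM in the libraries of 1 line only (Lims2 in scramble, Kank1 and Tns1 in shMCT-1). Dock1, an exchange factor for Rac, fell from 42.7 ± 2.18 to 16.6 ± 3.08 CPM (log2 fold changes of -1.26 and -1.36, edgeR adjusted p = 0.000231 and 0.00015). Nedd9, a focal adhesion scaffold, fell from 55.3 ± 0.863 to 25.3 ± 3.76 CPM (log2 fold changes of -1.10 and -1.07, edgeR adjusted p = 0.000188 and 0.000216). Kank1, a talin-binding protein, had 1 to 6 counts per scramble library and 138 to 178 counts per shMCT-1 library, and Tns1, which encodes tensin 1, had 3 to 11 and 110 to 168 counts. Having passed the filter through shMCT-1 alone, both are given by their counts with no test. The numbers and shares called in this list include both. Leaving out 1 library lowered the number called in this list in each comparison concerned, as it mostly did over all genes.

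All 10 genes listed for hemidesmosomes, tetraspanins and related surface proteins passed the filter. Within IgG 5 were higher and 2 lower (70.0% called, beside 54.4% of all genes). Within anti-IL-6R 5 were higher and 3 lower (80.0%, beside 54.3%). The median log2 fold changes of the list were 0.74 and 0.66. Dst, which encodes a plakin of hemidesmosomes, fell from 487 ± 30.1 to 205 ± 41.3 CPM (log2 fold changes of -1.18 and -1.23, edgeR adjusted p = 0.000519 and 0.000401), and Cd44, a hyaluronan receptor, fell from 423 ± 4.96 to 328 ± 22.8 CPM (log2 fold changes of -0.35 and -0.29, edgeR adjusted p = 0.00932 and 0.0218). The tetraspanin Cd63 rose from 170.0 ± 16.0 to 362 ± 19.1 CPM (log2 fold changes of 1.23 and 1.05, edgeR adjusted p = 2.2e-05 and 4.7e-05), and the tetraspanin Cd82 from 35.2 ± 2.71 to 74.7 ± 6.94 CPM (log2 fold changes of 1.12 and 1.15, edgeR adjusted p = 4.27e-05 and 3.29e-05).

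**Figure D5:**
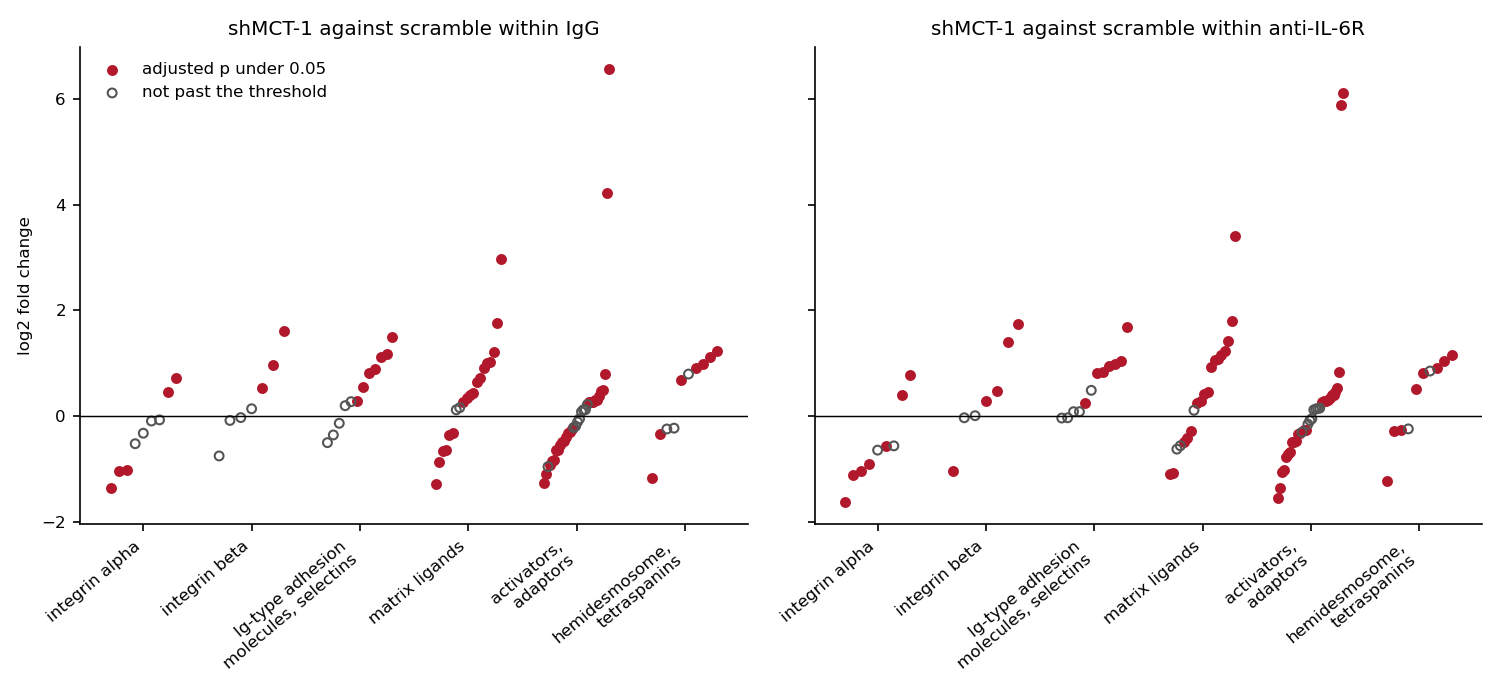
Difference between shMCT-1 and scramble as a log2 fold change (vertical axis) for each tested gene of 6 lists, within IgG (left) and within anti-IL-6R (right), with genes past an adjusted p of 0.05 filled and the others open. Vcam1 is not drawn. The other immunoglobulin-type adhesion molecules and selectins show 7 filled points above 0 and none below in each panel. The activators and adaptors spread to both sides, with Kank1 and Tns1 at the top. Itga2b, Itga10, Itgb2, Ccn3, Lims2, Kank1 and Tns1 were above 1 CPM in the libraries of 1 line only. They are drawn too, and their fill is not read as a test of the single gene.

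The 5 genes whose profile over the 8 libraries was most like that of Vcam1, by the root mean square difference of centred log2 CPM, were Fah (0.112), Irf8 (0.117), Rem2 (0.121), Fzd9 (0.124) and Clu (0.131). Fah, an enzyme of tyrosine breakdown, went from 2.02 ± 0.139 CPM in scramble to 14.8 ± 0.687 CPM in shMCT-1 (SD, n = 4 each), and Irf8, an interferon regulatory transcription factor, from 1.48 ± 0.187 to 11.3 ± 0.591 CPM. Rem2, a small GTPase, went from 3.43 ± 0.246 to 26.9 ± 1.77 CPM, Fzd9, a Wnt receptor, from 0.608 ± 0.0998 to 4.84 ± 0.208 CPM, and Clu, a secreted chaperone, from 40.7 ± 4.77 to 277 ± 34.7 CPM. The genes were picked for this likeness, so the values are a description.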

How the data were processed

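RNA of 8 libraries, 2 per group, was sequenced by the authors from poly(A)-selected libraries. Per the submitters' processing notes and the study's methods, reads were trimmed with cutadapt 1.18, aligned to mm10 with STAR 2.7.0d and counted with RSEM, and the authors deposited expected counts of 54532 genes per library, not normalized. Of the values above 0, 29.6% were not whole and were rounded. The GENCODE release M21 annotation used here holds 54409 of the gene identifiers. Whether counting used strand was not given in the sources used here.

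Genes above 1 CPM in at least 2 libraries (12704) entered 1 fit of 4 group means with TMM and the quasi-likelihood test in edgeR 4.0.16 (R 4.3.3), with Benjamini-Hochberg adjustment over all tested genes and a threshold of 0.05. The series' text calls the replicates independent. The fit was tested on simulated data. Alternatives were other scaling, filters, sample sets, DESeq2 1.42.0, the exact test, a replicate block, leaving out each library and a correction for GC content and length.

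The members and lists were chosen with earlier results of these data known. Of the fixed cell type markers, 1 is not reported here. Named were the members, all other tested integrins, for each list the 2 strongest rises and the 2 strongest falls by mean log2 fold change (genes called alike in both comparisons, mean CPM of 1 or more), and the 5 profiles nearest to Vcam1. Intervals and floors on single counts cover counting error only.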

Additional observations from a re-analysis of the deposited data

How the results depend on the processing

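The number of integrins called within IgG was 7 under every alternative run, and within anti-IL-6R it was 8 except when a library was left out, where it ranged from 6 to 8. No alternative called an integrin for anti-IL-6R or the interaction. The data gave no sign that the replicate numbers pair the samples (correlations between groups from -0.0796 to 0.106), and the labels do not say. With the replicate block 7 and 8 integrins were called. Over all genes, anti-IL-6R in scramble, in shMCT-1 and the interaction gave 0 calls, against 64, 128 and 92 with no filter on low counts, and shMCT-1 within anti-IL-6R gave 6895 calls, against 4389 without library 2 of scramble + anti-IL-6R. Depth limits the low members, since Itgb3 rested on 78 to 154 counts per library. Signs reversed only for values that were called neither in the test reported nor in the alternative. For Itgb4 within anti-IL-6R (0.0069) the value was -0.017 with the filter on at least 7 libraries, -0.047 with the GC and length correction and -0.046 with that correction and the block. For Itgav with anti-IL-6R in scramble it was 0.000247 with the correction and 0.000418 with the block added, and for Itga3 in the interaction 4.86e-05 with both. The cause was not tested.

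Leaving out 1 library at a time gave -0.087 to 0.027 for Itgb4 within IgG and -0.028 to 0.067 within anti-IL-6R. For anti-IL-6R in scramble the ranges were -0.12 to 0.057 for Itga2, -0.014 to 0.23 for Itga5, -0.063 to 0.0069 for Itgav and -0.14 to 0.019 for Itgb1. In shMCT-1 they were -0.092 to 0.48 for Itga2, -0.018 to 0.093 for Itga3, -0.14 to 0.27 for Itga6, -0.20 to 0.32 for Itgav and -0.037 to 0.24 for Itgb3. For the interaction they were -0.046 to 0.53 for Itga2, -0.11 to 0.026 for Itga3, -0.082 to 0.16 for Itga5, -0.19 to 0.22 for Itga6, -0.16 to 0.36 for Itgav, -0.024 to 0.10 for Itgb4 and -0.17 to 0.044 for Itgb5.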
